A study of Mus musculus with 6 samples.

Results

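The 6 genes described here encode fatty acid binding proteins (FABPs): *Fabp1*, *Fabp2*, *Fabp3*, *Fabp4*, *Fabp5* and *Fabp7*. They were taken by symbol from 49315 genes whose reads were counted in RNA of liver F4/80-positive cells, the fraction of liver that binds antibody to the macrophage surface protein F4/80 and that holds the Kupffer cells, macrophages that reside in the liver sinusoids. The 3 WT and 3 *Lpcat3* KOMac mice that were compared gave 1 library each. *Lpcat3* KOMac mice were *Lpcat3* fl/fl with 1 copy of *LysM* Cre, and the WT animals were littermates that were also *Lpcat3* fl/fl but carried no Cre. Both groups therefore shared the floxed *Lpcat3* alleles, and both were fed a high-fat diet (HFD) with 60% fat for 16 weeks from young adulthood, without further treatment. *LysM* Cre is expressed from the *Lyz2* locus in myeloid cells in general, so that deletion was limited neither to the liver nor to Kupffer cells. *Fabp7* was picked because of its lower level in *Lpcat3* KOMac cells in these very libraries, so its genotype difference is given as a description, without a p-value.

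FABPs are small soluble proteins of the cytoplasm. Each folds into a barrel that encloses a long-chain fatty acid or a related lipid, which is otherwise poorly soluble, and carries it between membranes, enzymes and nuclear receptors of the PPAR family. The members are named after the tissue where they abound: FABP1 liver, FABP2 intestine, FABP3 heart and muscle, FABP4 adipocytes and macrophages, FABP5 skin and macrophages, and FABP7 brain, where it marks radial glia. In mouse liver FABP7 is also known from Kupffer cells. LPCAT3 acts on the same fatty acids one step later, by placing activated polyunsaturated chains into membrane phospholipids.

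The coding sequences of the 6 genes were related but separable by sequencing reads. The most similar pair was *Fabp3* and *Fabp7*, with 66.4% identical bases, and the least similar was *Fabp1* and *Fabp4*, with 49.0%. The longest run of bases that any pair shared was 20, again in *Fabp3* and *Fabp7*. It lies in the following 90 bases (coding bases 137 to 226, from the GENCODE M21 transcripts), which are shown because reads of the abundant *Fabp7* and the scarce *Fabp3* would be easiest to confuse there. Capitals mark the 60 bases that are the same in both.
Fabp3: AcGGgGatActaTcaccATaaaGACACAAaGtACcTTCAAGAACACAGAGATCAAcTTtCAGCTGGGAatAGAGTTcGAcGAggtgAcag
Fabp7: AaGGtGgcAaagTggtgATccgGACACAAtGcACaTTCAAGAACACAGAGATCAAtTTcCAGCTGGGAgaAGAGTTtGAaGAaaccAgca
On either side of the shared run the identity was broken by mismatches. None of the 50-base windows of the *Fabp1*, *Fabp2*, *Fabp4* and *Fabp7* transcripts occurred in a transcript of another gene. For *Fabp3*, 37.3% of the windows did, mostly in its pseudogene *Fabp3-ps1*, which had at most 3 counts in any library. For *Fabp5* the share was 21.1%, in 5 pseudogenes that had at most 7 counts each. *Fabp3* overlaps *Zcchc17* on the other strand by 81 bases, and *Fabp2* lies within the antisense gene *4933405D12Rik*, which had 1 to 10 counts. The strand setting of the counting and its handling of reads with several matches are not given in the sources used here. The levels of *Fabp3* and *Fabp5* are therefore uncertain. Low counts of the pseudogenes do not show how reads of the shared windows were counted.

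Total counts lay between 44954224 and 71392812 per library, and levels are given as CPM, counts scaled to a common library size, after TMM correction for composition. The targeted gene, *Lpcat3*, had 85.0, 66.2 and 61.2 CPM in the 3 WT mice, in the order of their numbers, against 19.5, 33.3 and 19.4 CPM in the 3 *Lpcat3* KOMac mice, a mean of 34.0% of WT. *Lyz2*, the gene into which the Cre is inserted, stood at 37.4% of WT. The Kupffer cell transcript *Clec4f* was at 6446 to 12166 CPM in all libraries, but *Alb*, the mRNA of hepatocyte albumin, was also present, at 1204 to 13047 CPM. WT mouse 1 and *Lpcat3* KOMac mouse 2 stood apart in this respect. Summed over 8 hepatocyte transcripts, they had 21518 and 13740 CPM, against 1925 to 5182 CPM in the other 4 libraries, and the levels and genotype differences of *Fabp1*, *Fabp2* and *Fabp7* are given with and without them.

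Compared per kilobase of exon, *Fabp1* and *Fabp7* were the abundant members (plot of FABP levels per mouse). *Fabp1* averaged 784 ± 862 CPM per kilobase (SD, n = 6), which ranked 49 among the 16134 genes tested, and *Fabp7* averaged 276 ± 47.8 CPM per kilobase (SD, n = 6), which ranked 146. WT mouse 1 carried much of the *Fabp1* mean, which was 466 ± 414 CPM per kilobase (SD, n = 5, rank 72) without that mouse. Without both WT mouse 1 and *Lpcat3* KOMac mouse 2 it was 290 ± 149 CPM per kilobase (SD, n = 4, rank 135), beside 282 ± 50.8 for *Fabp7*. The range of *Fabp1*, from 122 to 2373 CPM per kilobase, enclosed that of *Fabp7*, from 224 to 329, so the order of these neighbours differed between mice. *Fabp7* was the higher in WT mice 2 and 3, where it made up 60.4% and 70.0% of the summed FABP level per kilobase, and *Fabp1* in the other 4 mice, where it made up 59.6% to 86.1%. *Fabp2* followed at 24.6 ± 26.4, *Fabp5* at 6.26 ± 3.26 and *Fabp4* at 5.57 ± 2.70 CPM per kilobase (SD, n = 6), with ranges that overlapped one another, and *Fabp2* was at 15.5 without WT mouse 1 and at 8.69 without both mice. The exonic lengths of *Fabp4* and *Fabp5* include retained introns, and divided by the longest coding transcript instead their levels were 27.9 and 22.6 CPM per kilobase, which placed *Fabp4* above *Fabp2*. On that length *Fabp7* rose from 276 to 393 CPM per kilobase (n = 6), while *Fabp1* stayed at 784. How close *Fabp1* and *Fabp7* stood without both mice therefore depends on the length used. *Fabp3* was lowest, at 0.243 ± 0.0902 CPM per kilobase (SD, n = 6), below every value of the other members.

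**Figure D1:**
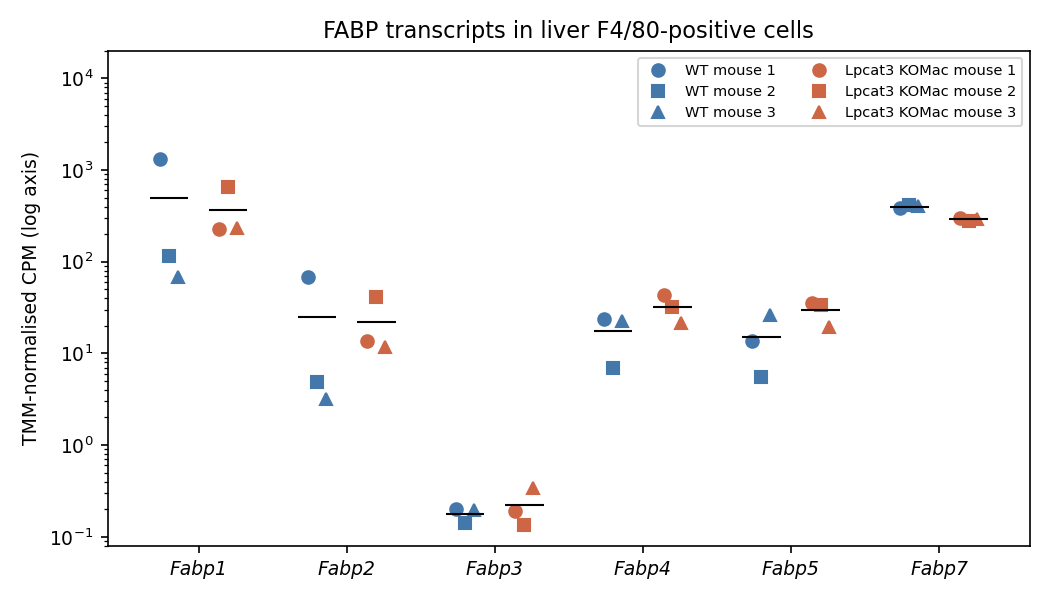
TMM-normalised CPM of the 6 FABP genes (log axis) in each mouse, WT in blue and *Lpcat3* KOMac in red, with the marker shape giving the mouse number and the short line the mean of 3 mice. *Fabp1* and *Fabp2* spread over a 19.4-fold and a 21-fold range with the same mice high and low, while *Fabp7* stayed within a 1.47-fold range with the 3 *Lpcat3* KOMac mice lowest.

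Across all genes, the quasi-likelihood test of edgeR called 0 of 16134 genes (0%) between genotypes after Benjamini-Hochberg adjustment, and 426 (2.64%) had an unadjusted p under 0.05. DESeq2 called 12. The 6 FABP genes all passed the filter on low counts, and none of them was called by edgeR. Nor were the targeted *Lpcat3*, with a log2 fold change of -1.56, and *Lyz2*, with -1.42 (adjusted p = 0.99991 each in edgeR). In both genes every *Lpcat3* KOMac value was below those of WT, and the paper reports both as differentially expressed. The lack of a call in this test therefore does not show that a gene was unchanged. Of the 5 members that were not chosen on this contrast, 3 had a positive and 2 a negative log2 fold change, 0 had an unadjusted p under 0.05, and in all 5 the genotypes overlapped. Over all genes tested, 5.2% had every *Lpcat3* KOMac value below those of WT and 2.29% above. The median log2 fold change of the 6 members was 0.05, beside -0.04 over all genes tested.

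*Fabp1* (ENSMUSG00000054422, chr6:71199827-71205023 of GRCm38, plus strand), the abundant carrier of hepatocytes, showed 1312.5, 115 and 67.7 CPM across the WT mice (1, 2, 3), against 226, 647 and 233 CPM across the *Lpcat3* KOMac mice. WT mouse 1 was highest and the other WT mice were lowest, so the genotypes overlapped. WT cells averaged 498 ± 706 and *Lpcat3* KOMac cells 369 ± 241 CPM (SD, n = 3 each), so that the log2 fold change was -0.44 with a standard error of 1.21 (edgeR, adjusted p = 1.00). *Fabp2* (ENSMUSG00000023057, chr3:122895072-122899506, plus strand), the FABP of the gut epithelium, had 67.6, 4.91 and 3.21 CPM in the 3 WT mice by number, against 13.6, 41.3 and 11.8 CPM in the 3 *Lpcat3* KOMac mice. Its mice stood in nearly the same order as for *Fabp1*, except that *Lpcat3* KOMac mice 1 and 3 changed places. WT cells averaged 25.2 ± 36.7 and *Lpcat3* KOMac cells 22.2 ± 16.5 CPM (SD, n = 3 each), so that the log2 fold change was -0.18 with a standard error of 1.27 (edgeR, adjusted p = 1.00).

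The ratio between *Fabp1* and *Fabp2* counts varied far less than either gene. It lay between 15.7 and 23.3, a 1.49-fold range, while the genes themselves spanned 19.4-fold and 21-fold. Both followed the hepatocyte transcripts from mouse to mouse (plot of companions). *Alb* had 13047, 1204 and 1318 CPM in the 3 WT mice, in the order of their numbers, against 3129, 9284 and 3136 CPM in the 3 *Lpcat3* KOMac mice. The ratio of *Fabp1* to *Apoc3*, which encodes an apolipoprotein of hepatocytes, stayed within a 1.24-fold range, the narrowest of the 8, that to *Alb* within 1.96-fold and that to *Apob* within 2.43-fold, the widest, and the genotypes overlapped in each of these 3. *Ttr* (transthyretin) was the exception among the 8: its *Fabp1* ratio was 0.769 to 0.886 in WT and 0.595 to 0.753 in *Lpcat3* KOMac mice, with no overlap. For *Fabp2* the 8 ratios had ranges of 1.34-fold (*Ttr*) to 2.80-fold (*Serpina1c*), and the genotypes overlapped in each. In bulk RNA, fewer cells of a type and less RNA per cell cannot be told apart.

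The genotype difference of this pair therefore turned on which libraries were counted. When the mean log2 CPM of the 8 hepatocyte genes was added to the fit, the log2 fold change of *Fabp1* was -0.15 (standard error 0.12, adjusted p = 0.716 in edgeR) and that of *Fabp2* was 0.12 (standard error 0.11, adjusted p = 0.761 in edgeR). Without that term the standard errors had been 1.21 and 1.27. Without WT mouse 1 and *Lpcat3* KOMac mouse 2, the sign turned: *Fabp1* was at 1.33 (standard error 0.26, adjusted p = 0.149 in edgeR) and *Fabp2* at 1.65 (standard error 0.26, adjusted p = 0.105 in edgeR), with both remaining *Lpcat3* KOMac mice above both remaining WT mice. The summed hepatocyte transcripts were then 1925 to 2034 CPM in WT and 4952 to 5182 CPM in *Lpcat3* KOMac mice, and their part in the result was not tested. Leaving out WT mouse 1 alone gave 2.02 for *Fabp1* and 2.45 for *Fabp2*. The latter was also positive without *Lpcat3* KOMac mouse 1 (0.09) or mouse 3 (0.14).

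The stretches before the start sites of these genes are shown because the pair varied together while the genes lie on different chromosomes, with *Fabp7*, which did not vary with them, for comparison. They are RefSeq promoter sequences (GRCm38.p6, plus strand), taken up to the start of the GENCODE M21 gene: chr6:71199629-71199826 for *Fabp1*, chr3:122894822-122895071 for *Fabp2* and chr10:57784673-57784880 for *Fabp7*. Capitals mark the half-site of many nuclear receptors (AGGTCA, in capitals as its reverse complement where it lies on the other strand). In *Fabp1* they also mark the half-site of the hepatocyte factor HNF1 (GTTAAT).
Fabp1: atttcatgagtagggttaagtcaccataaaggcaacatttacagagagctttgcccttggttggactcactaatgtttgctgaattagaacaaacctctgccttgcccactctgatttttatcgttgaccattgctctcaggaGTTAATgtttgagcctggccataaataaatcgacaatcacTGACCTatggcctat
Fabp2: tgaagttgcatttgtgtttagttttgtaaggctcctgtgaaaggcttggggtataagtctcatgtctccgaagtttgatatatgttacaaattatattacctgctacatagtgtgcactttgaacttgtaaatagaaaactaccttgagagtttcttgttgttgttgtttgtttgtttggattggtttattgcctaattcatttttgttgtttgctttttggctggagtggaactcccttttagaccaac
Fabp7: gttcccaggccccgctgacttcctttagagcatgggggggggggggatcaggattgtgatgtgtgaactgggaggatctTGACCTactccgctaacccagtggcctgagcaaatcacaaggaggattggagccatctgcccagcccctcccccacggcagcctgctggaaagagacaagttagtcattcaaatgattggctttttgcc
Both half-sites were searched on either strand in the 250 bases before the RefSeq starts of *Fabp1*, *Fabp2*, *Fabp3* and *Fabp7*. So was the PU box, a site of ETS factors of myeloid cells (GAGGAA), on either strand. The TATA box was searched on the plus strand alone (TATAAA). *Fabp4* and *Fabp5* were not searched, because the promoter sequences used held no entry for them. The *Fabp1* window held the nuclear receptor half-site at 2 places on the minus strand and each of the other motifs once, with the TATA box at 30 to 25 bases before the start, past the end of the stretch shown. *Fabp7* held 1 nuclear receptor half-site on the minus strand, at 171 to 166 bases before the start, and *Fabp2* and *Fabp3* held none of the 4. Of 27025 promoters, 13.8% held the nuclear receptor half-site, 6.52% that of HNF1, 23.1% the PU box and 8.12% the TATA box. These are matches of letters and not binding sites, and a window without a match lacks only these letters.

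**Figure D2:**
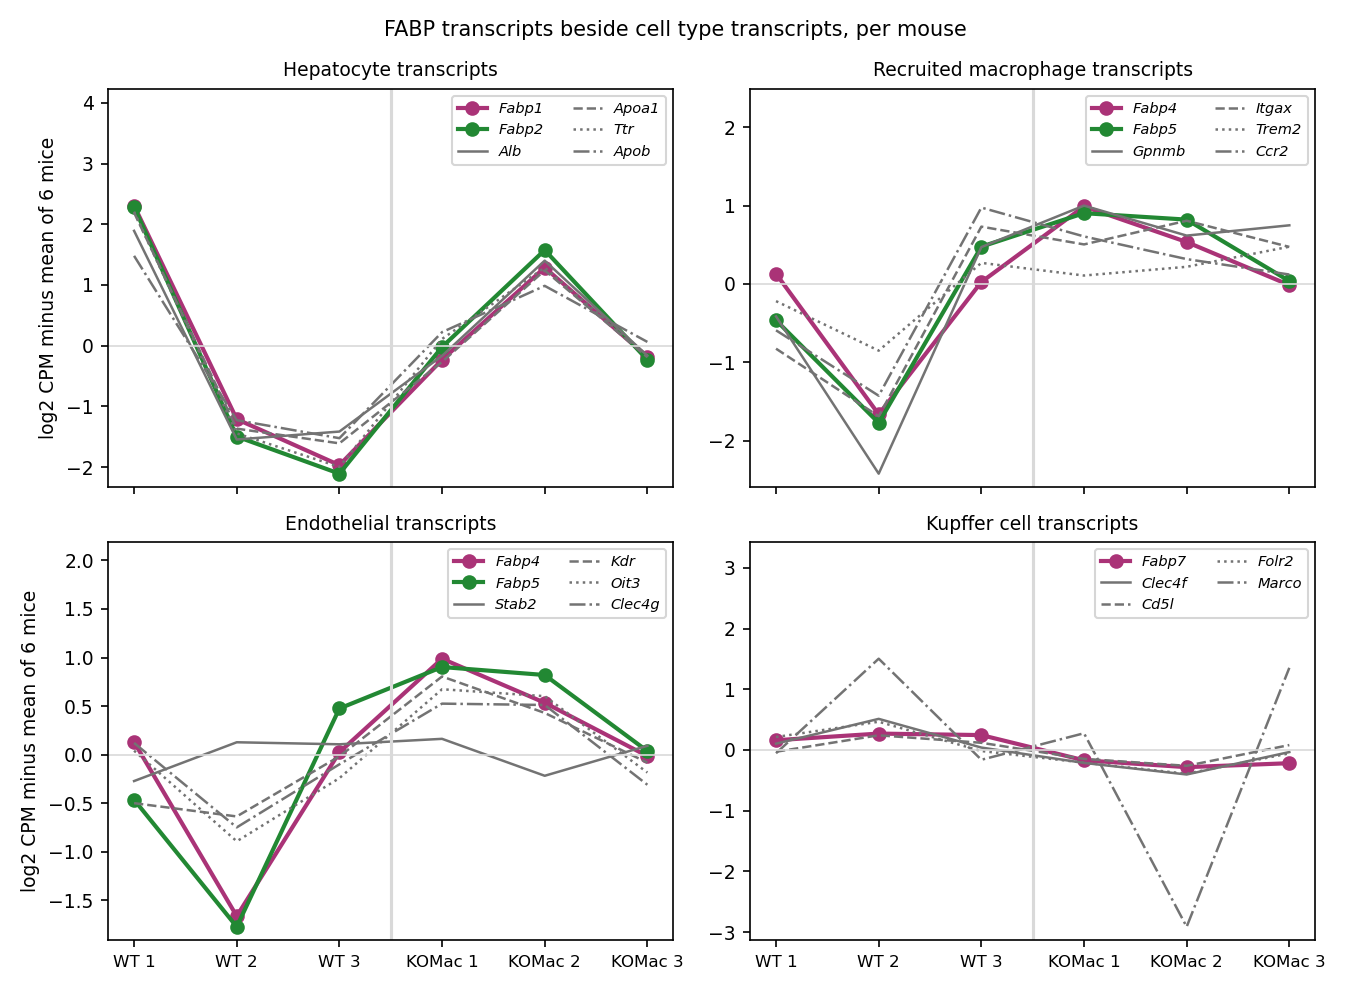
Log2 CPM of FABP genes (thick coloured lines) and of cell type transcripts (thin grey lines) in each mouse, minus the mean of the 6 mice; the lines only join values of 1 gene. *Fabp1* and *Fabp2* lie on the hepatocyte lines, and *Fabp7* lies close to *Clec4f* and *Folr2* but not to *Marco*. *Fabp4* and *Fabp5* share their lowest library, WT mouse 2, with the recruited macrophage transcripts shown. They share it also with the endothelial *Kdr*, *Oit3* and *Clec4g*, but not with *Stab2*.

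*Fabp4* (ENSMUSG00000062515, chr3:10204088-10208576, minus strand), which in macrophages and fat cells delivers fatty acids released from lipid stores, showed 24.0, 6.92 and 22.3 CPM across the WT mice (1, 2, 3), against 43.5, 31.8 and 21.7 CPM across the *Lpcat3* KOMac mice. WT mouse 2 was well below the others, and *Lpcat3* KOMac mouse 3 lay among the WT values. WT cells averaged 17.7 ± 9.40 and *Lpcat3* KOMac cells 32.3 ± 10.9 CPM (SD, n = 3 each), so that the log2 fold change was 0.87 with a standard error of 0.52 (edgeR, adjusted p = 1.00). The paper reports the other direction, a significant decrease of *Fabp4* mRNA, in *Lpcat3* KOMac macrophages grown from bone marrow. Those were cultured cells in a targeted mRNA measurement, unlike the sorted liver cells here, and the reason for the difference was not tested. *Fabp5* (ENSMUSG00000027533, chr3:10012548-10016607, plus strand), which shares ligands with FABP4 and is expressed with it in macrophages, had 13.7, 5.55 and 26.3 CPM in the 3 WT mice by number, against 35.4, 33.4 and 19.4 CPM in the 3 *Lpcat3* KOMac mice. Again WT mouse 2 was lowest and *Lpcat3* KOMac mouse 1 highest, and WT mouse 3 stood above *Lpcat3* KOMac mouse 3. WT cells averaged 15.2 ± 10.5 and *Lpcat3* KOMac cells 29.4 ± 8.71 CPM (SD, n = 3 each), so that the log2 fold change was 0.95 with a standard error of 0.58 (edgeR, adjusted p = 1.00). The ratio of *Fabp4* to *Fabp5* lay between 0.846 and 1.75, a 2.06-fold range beside 6.28-fold and 6.38-fold for the genes. Across the 6 libraries the log2 levels had a Pearson r of 0.933 for *Fabp4* with *Fabp5* and of 0.994 for *Fabp1* with *Fabp2*, the 2 highest of the 15 pairs of members. These are descriptions of 6 points that share their libraries.

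*Fabp4* and *Fabp5* lie in one cluster on chromosome 3 together with *Pmp2*, *Fabp9* and *Fabp12*, of which *Pmp2* and *Fabp9* had 0 counts in every library and *Fabp12* had at most 1. Transcripts of fat cells were scarce: *Lep* (leptin) had 0 counts, *Adipoq* (adiponectin) at most 1 and *Plin1* (the coat protein of their lipid droplet) at most 3 in any library. *Cfd* (adipsin) had 2 to 313 counts, most in WT mouse 1. The 5 fat cell transcripts summed to 1.62 to 42.6 CPM in WT and 5.46 to 41.0 CPM in *Lpcat3* KOMac mice, mostly from *Cidec*, which hepatocytes also express on such a diet. Transcripts of several other cell types leaned the same way as *Fabp4* and *Fabp5*, whereas 6466 of the 16134 genes tested had a positive log2 fold change. Of the 8 transcripts of recruited macrophages and monocytes, 8 had a positive log2 fold change (median 0.53) and 0 were called, and they summed to 159 to 635 CPM in WT and 609 to 631 CPM in *Lpcat3* KOMac mice. *Gpnmb*, a transcript of lipid-laden macrophages, had 88.9, 22.1 and 164 CPM in the 3 WT mice, in the order of their numbers, against 237, 182 and 199 CPM in the 3 *Lpcat3* KOMac mice. Of 9 endothelial transcripts, 7 had a positive log2 fold change (median 0.56), 2 of these (*Kdr* and *Tek*) had an unadjusted p under 0.05 in edgeR and 0 were called, while their sum, 1549 to 2110 CPM in WT and 1568 to 1973 CPM in *Lpcat3* KOMac mice, overlapped. Of 6 stellate cell transcripts, 5 were positive (median 0.30), with sums of 55.8 to 137 CPM in WT and 101 to 181 CPM in *Lpcat3* KOMac mice. Of 3 cholangiocyte transcripts tested, 3 were positive (median 0.63), and their list summed to 0.319 to 0.678 CPM in WT and 0.895 to 1.14 CPM in *Lpcat3* KOMac mice, without overlap. The transcripts of that list had only 1 to 23 counts per library, and each by itself overlapped between genotypes. Ratios were taken to 7 picked transcripts, *Gpnmb*, *Itgax*, *Trem2*, *Ccr2*, *Kdr*, *Oit3* and *Clec4g*, all with a positive log2 fold change. None was taken to the endothelial *Pecam1* (log2 fold change -0.24), *Cdh5* (-0.22) or *Stab2* (0.02). The ratios therefore do not speak for endothelial transcripts in general. Ratios of *Fabp4* to the 7 spanned 2.12-fold (*Oit3*, of liver sinusoids) to 3.23-fold (*Trem2*). Those of *Fabp5* spanned 1.78-fold (*Itgax*, CD11c) to 3.29-fold (*Trem2*), and no ratio separated the genotypes. The part of these cells in the *Fabp4* and *Fabp5* values was not tested.

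*Fabp3* (ENSMUSG00000028773, chr4:130308595-130315463, plus strand), the FABP of heart muscle, had 13, 7 and 9 counts in the 3 WT mice by number, against 11, 7 and 16 in the 3 *Lpcat3* KOMac mice. This is little above the floor of 3 counts, which came to 0.0462 to 0.0656 CPM. Its level averaged 0.179 ± 0.0339 in WT and 0.221 ± 0.106 CPM in *Lpcat3* KOMac cells (SD, n = 3 each), and its log2 fold change was 0.29 with a standard error of 0.44 (edgeR, adjusted p = 1.00). The 95% Poisson intervals of the lowest and the highest library, 0.0543 to 0.278 and 0.194 to 0.552 CPM, overlapped, and cover counting error only. The sign of the log2 fold change turned without *Lpcat3* KOMac mouse 3 (-0.11).

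*Fabp7* (ENSMUSG00000019874, chr10:57784881-57788450, plus strand), the brain FABP that Kupffer cells also carry, showed 381, 411 and 404 CPM across the WT mice (1, 2, 3), against 303, 280 and 293 CPM across the *Lpcat3* KOMac mice. Every *Lpcat3* KOMac mouse was below every WT mouse, and the gene was picked for this difference. WT cells averaged 399 ± 15.7 and *Lpcat3* KOMac cells 292 ± 11.5 CPM (SD, n = 3 each), or 73.3% of WT, and the log2 fold change was -0.45 with a standard error of 0.078. These values rest on 13809 to 24784 counts per library. Within a genotype *Fabp7* was the steadiest of the 6, in the same values on which it was picked. Its SD was 3.94% of the mean in WT and 3.92% in *Lpcat3* KOMac mice. The next lowest were 19.0% in WT (*Fabp3*) and 29.6% in *Lpcat3* KOMac mice (*Fabp5*). The log2 fold change of *Fabp7* was -0.45 without WT mouse 1 and *Lpcat3* KOMac mouse 2 and -0.43 with the hepatocyte covariate.

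The log2 fold change of *Fabp7* lay within the range of the Kupffer cell transcripts, -0.64 to -0.18. All 8 of these were negative (median -0.36), 0 were called and 2 had an unadjusted p under 0.05 in edgeR, and their sum was 26536 to 37061 CPM in WT and 19566 to 28904 CPM in *Lpcat3* KOMac mice. Over all 16134 genes tested, 9668 were negative and 2.64% had an unadjusted p under 0.05 in edgeR. In 2 of the 8, *Clec4f* and *Folr2*, every *Lpcat3* KOMac mouse was below every WT mouse, as in *Fabp7* and in 5.2% of all genes tested. *Clec4f*, a lectin found on Kupffer cells, had a log2 fold change of -0.44 and *Folr2*, a folate receptor of resident macrophages, of -0.45, whereas *Vsig4*, a complement receptor, was at -0.24, *Cd5l*, a secreted protein, at -0.22 and *Adgre1*, which encodes F4/80 itself, at -0.18. Without WT mouse 1 and *Lpcat3* KOMac mouse 2, 7 of the 8 were negative (median -0.21). The level of *Fabp7* relative to *Clec4f* was 3.38% to 4.61% in all mice, and its mean in *Lpcat3* KOMac mice was 0.987 times that in WT. This factor was 0.988 relative to *Folr2*, 0.864 to *Vsig4* and 0.816 to *Adgre1*, and 1.34 to *Timd4* and 2.49 to *Marco*. The genotypes overlapped in 7 of these 8 ratios. The exception was *Cd5l*, against which *Fabp7* stood at 2.78% to 3.90% and was lower in every *Lpcat3* KOMac mouse (factor 0.855). *Marco*, a scavenger receptor, and *Timd4*, which marks Kupffer cells of embryonic origin, varied far more than *Fabp7*, *Marco* from 148 to 3167 CPM, and *Fabp7* did not follow them. The part of Kupffer cell share in the *Fabp7* level was not tested. Transcripts of glia, the other home of FABP7, were near or at 0: *Sox10* had 0 counts in every library, *S100b* at most 2, and the 4 glial transcripts summed to 0.718 to 0.962 CPM in WT and 0.809 to 0.977 CPM in *Lpcat3* KOMac mice.

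The transcript of *Fabp7* is short, and the genotype difference of all genes leaned with length. Its exons span 1250 bases, and only 12.2% of the genes tested were shorter, the median being 3581. Across the 16134 genes the log2 fold change and the exonic length had a Spearman correlation of 0.19, as a description, since genes are not independent replicates. The median log2 fold change was -0.09 in the shortest of 10 equal classes of exonic length, -0.10 in the next and 0.01 in the longest. At the length of *Fabp7* the smooth trend with length was -0.07, and with that trend taken out of every library the log2 fold change was -0.38 in place of -0.45. For *Fabp1*, *Fabp2* and *Fabp3*, which are shorter still, the trend was between -0.07 and -0.06, small beside their standard errors, and for the longer *Fabp4* and *Fabp5* it was -0.01 and -0.02.

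**Figure D3:**
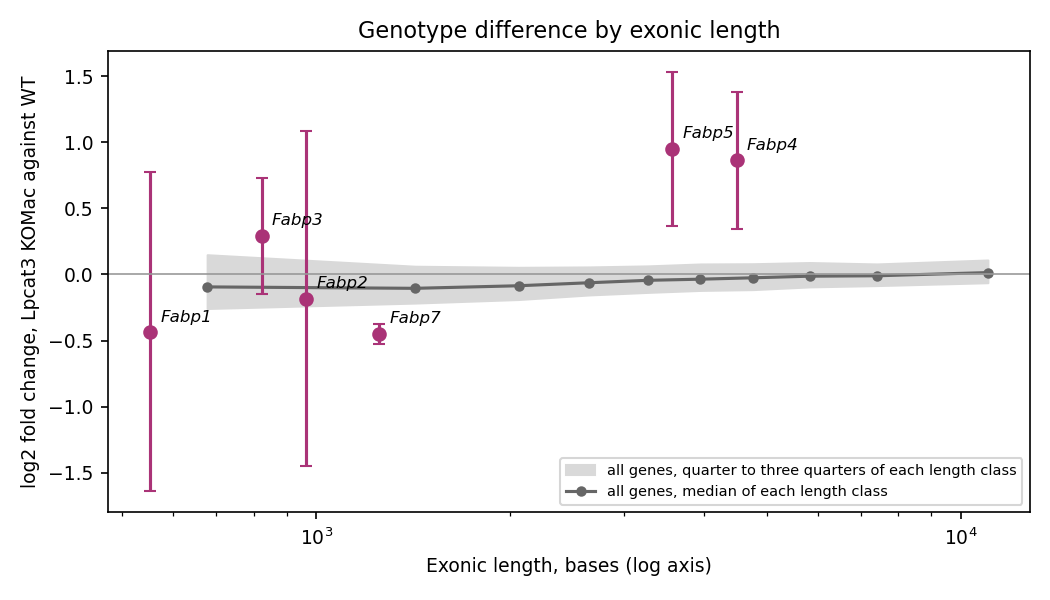
Log2 fold change of *Lpcat3* KOMac against WT by exonic length (log axis) for the 6 FABP genes (points, bars show the standard error) and for all 16134 genes in 10 classes of length (grey line, median; band, lower to upper quartile). The median runs from -0.09 for the shortest class to 0.01 for the longest, and *Fabp7*, which was picked for its lower level, is at -0.45; the bars of *Fabp1* and *Fabp2* reach across the band.

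Over 10 other settings and with each of the 6 mice left out in turn, the log2 fold change of *Fabp7* kept between -0.48 and -0.36, that of *Fabp4* between 0.48 and 1.16 and that of *Fabp5* between 0.55 and 1.61. Those of *Fabp1* and *Fabp2* changed sign (plot of settings). *Fabp7* was picked for its lower level in these same libraries, so its steady sign is no independent evidence.

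**Figure D4:**
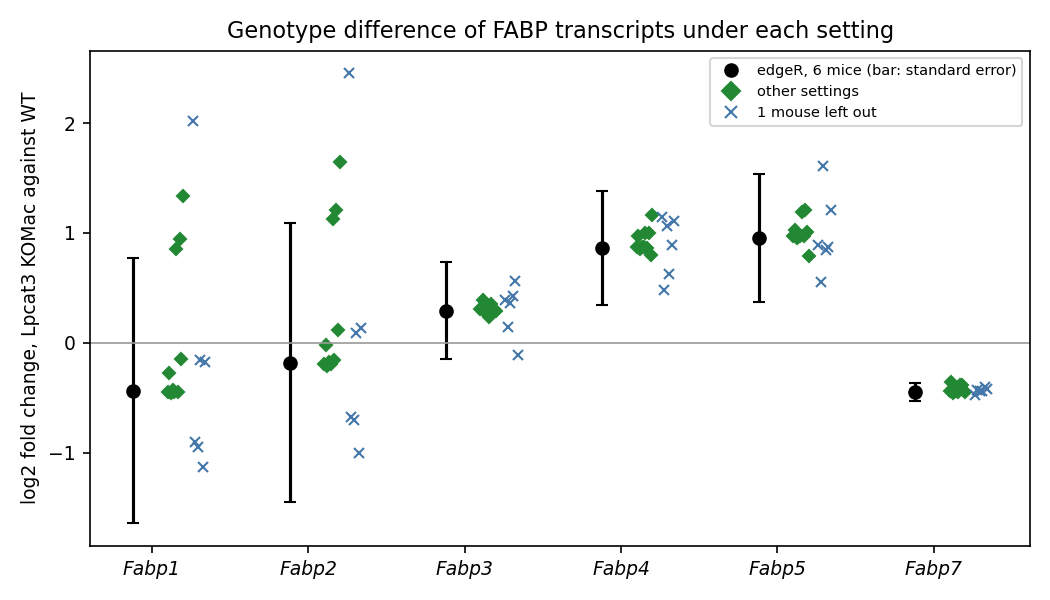
Log2 fold change of each FABP gene with edgeR on 6 mice (black, bars show the standard error), under other settings (green) and with 1 mouse left out (blue crosses). *Fabp7*, which was picked for its lower level in these same libraries, stayed between -0.48 and -0.36. *Fabp4* and *Fabp5* stayed above 0, while *Fabp1* reached from -1.13 to 2.02 and *Fabp2* from -1.0 to 2.45.

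The 3 genes whose levels followed a member most closely were different for each member, although *Fabp1* and *Fabp2* themselves had a Pearson r of 0.994. Among 9069 genes of at least 10 CPM, likeness was taken as the Pearson r of log2 CPM, given as a description of 6 libraries that share their depth and preparation. For *Fabp1* the closest were *Serpina10*, *Spp2* and *Hoga1*, with r of 0.9994 to 0.9996, and for *Fabp2* they were *Mgam*, *Gsta3* and *Lims2*, with 0.9995 to 0.9998. As many as 787 genes had an r over 0.95 with *Fabp1* and 735 with *Fabp2*, against 32 for *Fabp4*, 25 for *Fabp5* and 35 for *Fabp7*. The closest to *Fabp4* were *Inhbb*, *Ndrg1* and *Mcam* (0.991 to 0.996), and the closest to *Fabp5* were *Nrp2*, *Pcgf3* and *Adam8* (0.983 to 0.989). *Abhd16a*, *Rnaset2a* and *Ier3ip1* were closest to *Fabp7* (0.982 to 0.989). *Abhd16a*, which encodes a phospholipase that makes lysophosphatidylserine, had 60.2, 61.8 and 60.7 CPM in the 3 WT mice by number, against 57.8, 56.5 and 57.5 CPM in the 3 *Lpcat3* KOMac mice, so its mice stood in the order of *Fabp7* with a far smaller step. For *Fabp3* only 1 gene passed 0.95, *Cul7* (0.951).

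Several other carriers of the family were nearly absent. *Fabp6*, the bile acid carrier of the ileum, and *Crabp2* had at most 1 count in any library, and *Crabp1* and *Rbp2* had 0. *Rbp7* had 1 to 4 counts.

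The genes that work around FABPs were called in 0 cases as well, by the same test that did not call *Lpcat3*. Of 13 genes of fatty acid uptake, 7 had a positive and 6 a negative log2 fold change (median 0.06), and 0 had an unadjusted p under 0.05 in edgeR. *Cd36*, the main fatty acid receptor of macrophages, had 742, 535 and 753 CPM in the 3 WT mice, in the order of their numbers, against 821, 766 and 741 CPM in the 3 *Lpcat3* KOMac mice, and its log2 fold change was 0.20, SE 0.15. Like *Fabp4* and *Fabp5*, it was lowest in WT mouse 2. For *Slc27a6*, a fatty acid transporter, the log2 fold change was -1.11, SE 0.56, with overlapping genotypes. Of 10 genes tested that activate fatty acids or carry acyl-CoA, 4 were positive and 6 negative (median -0.08). *Acsl3*, an acyl-CoA synthetase of the lipid droplet surface, was the only one of these with an unadjusted p under 0.05: it showed 13.0, 10.7 and 10.3 CPM across the WT mice (1, 2, 3), against 14.7, 20.4 and 21.4 CPM across the *Lpcat3* KOMac mice, a difference of 0.73 on the log2 scale, SE 0.19, that was not called after adjustment. Every *Lpcat3* KOMac mouse was above every WT mouse. *Dbi*, the acyl-CoA binding protein, ranged from 45.3 to 201 CPM, highest in WT mouse 1 like *Fabp1*, with a log2 fold change of -0.21 that was 0.52 without WT mouse 1 and *Lpcat3* KOMac mouse 2.

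Of 8 lipolysis genes tested, 5 were positive and 3 negative (median 0.05), and *Lipe*, the hormone-sensitive lipase that FABP4 binds, was at 24.4 to 30.5 CPM in all mice. *Plin2*, a lipid droplet coat protein, was at 518 to 846 CPM with a log2 fold change of 0.08. The 9 receptors and coactivators of the PPAR and retinoid group include the PPARs, to which FABPs deliver ligand. The 9 had a median log2 fold change of 0.00, 5 positive and 4 negative. In *Rxrb*, a dimer partner of PPARs, each of the *Lpcat3* KOMac values was below those of WT (log2 fold change -0.11, SE 0.068). *Pparg*, under which *Fabp4* is induced in fat cells and macrophages, was at 21.2 to 35.3 CPM with a log2 fold change of 0.27, *Ppard*, the partner of FABP5, was at 22.2 to 28.1 CPM with 0.11, and *Ppara*, the partner of FABP1, ranged from 2.89 to 77.8 CPM with -0.15, which turned to 1.38 without WT mouse 1 and *Lpcat3* KOMac mouse 2. The spread of *Ppara* had its highest value in WT mouse 1 and its lowest in WT mouse 3, as for *Fabp1*. Of 11 PPAR target genes, 3 were positive and 8 negative (median -0.10), 0 had an unadjusted p under 0.05 in edgeR, and in *Pdk4*, which curbs glucose oxidation, every *Lpcat3* KOMac mouse was above every WT mouse (log2 fold change 0.40, standard error 0.21). Without WT mouse 1 and *Lpcat3* KOMac mouse 2, 8 of the 11 were positive (median 0.53), 8 had an unadjusted p under 0.05 in edgeR and 0 were called. Over all 16126 genes of that fit, 7388 were positive, 1767 had an unadjusted p under 0.05 in edgeR and 0 were called. The other lists also leaned higher then, with 10 of 13 uptake genes (median 0.38) and 9 of 10 activation and carrier genes (median 0.25) positive and 0 called, while all 8 hepatocyte transcripts were positive (median 1.37). The part of hepatocytes in these values was not tested.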

How the data were processed

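RNA of F4/80-positive liver cells was poly-A selected and sequenced, 1 library per mouse. The authors deposited raw read counts per Ensembl gene and an exonic length for each of 49315 genes. Their processing notes name Trimmomatic 0.36, STAR 2.5.2b, featureCounts of Subread 1.5.2 and GRCm38; the strand setting and the handling of reads with several matches are not given in the sources used here. Symbols came from GENCODE M21, where 49056 identifiers were found. Groups and mouse numbers came from the sample labels.

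The genotype test was run on these counts in edgeR 4.0.16 (R 4.3.3, limma 3.58.1): TMM scaling, default filter (minimum count 10), robust quasi-likelihood test with genotype as the only term, and Benjamini-Hochberg adjustment over 16134 genes, called under 0.05. Standard errors are the log2 fold change over the root of F. The fits were tested on counts simulated with less spread between libraries than in these data. Here the common biological coefficient of variation, the spread between mice beyond counting error, was 0.391. The simulation therefore does not show how well the fits find changes in these data. Likeness used log2 CPM with a prior count of 2. Alternatives were other scalings and filters, DESeq2 1.42.0, a length offset (loess span 0.3), a hepatocyte covariate, the replicate block and leaving out each mouse; leaving out WT mouse 1 and Lpcat3 KOMac mouse 2 together, and levels per kilobase without each mouse, were chosen after seeing the data. The members and all lists were chosen with earlier results of these data known. Of each pathway list up to 3 genes of smallest unadjusted p are named, besides Cd36, Dbi, Lipe, Plin2, Pparg, Ppara and Ppard; relatives of the family are named whatever their values, except 1 that is not reported here. The labels do not say whether equal mouse numbers pair animals, and the main fit treated the mice as unpaired. Deviations of same-numbered mice correlated between -0.60 and 0.36 (mean -0.18, against 0.11 for different numbers). With 3 such pairs, these values cannot decide whether the animals were paired. No library was a copy of another (chi-square over its degrees of freedom, 40.7 to 520).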

Additional observations from a re-analysis of the deposited data

How the results depend on the processing

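DESeq2 called 12 genes where edgeR called 0, Fabp7 among them at a log2 fold change of -0.44, which is no independent evidence because the gene was picked on this contrast. With the replicate block, edgeR called 0 genes, 138 had an unadjusted p under 0.05 and the sign turned for Fabp1 (0.85) and Fabp2 (1.12). With the block and the length offset these were 0.94 and 1.2, and Fabp7 was -0.38. The hepatocyte covariate turned Fabp2 to 0.12, and leaving out WT mouse 1 and Lpcat3 KOMac mouse 2, chosen after seeing the data, turned Fabp1 to 1.33 and Fabp2 to 1.65. With each mouse left out in turn, 0 genes were called and log2 fold changes ranged from -1.13 to 2.02 for Fabp1, -1.0 to 2.45 for Fabp2, -0.11 to 0.56 for Fabp3, 0.48 to 1.15 for Fabp4, 0.55 to 1.61 for Fabp5 and -0.48 to -0.40 for Fabp7. Genes with an unadjusted p under 0.05 then numbered 179 to 2028, the most without WT mouse 1. The cause was not tested. Of 94 alternative values of the members, 81 kept their direction with no call, 12 turned in sign and 1, that of Fabp7 in DESeq2, passed its test; for 3 of them (Fabp1, Fabp2 and Fabp3 in DESeq2) there was no adjusted p, so no call could be made. Over the longest coding transcript, the levels moved to 27.9 CPM per kilobase for Fabp4, 22.6 for Fabp5 and 393 for Fabp7. With total counts only, the median of all genes moved from -0.04 to 0.06, and Fabp7 was at -0.36. With 1 mouse left out, levels per kilobase ranged from 466 to 916 for Fabp1 and 15.5 to 28.9 for Fabp2. Fabp3 rests on 7 to 16 counts per library, the fewest of the 6.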
